A study of Mus musculus with 10 samples.

Results

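The 10 genes described here are Nfe2l2 and Keap1, which encode the transcription factor NRF2 and its inhibitor, and 8 antioxidant target genes, Gclc, Gclm, Gsr, Txnrd1, Srxn1, Nqo1, Hmox1 and Osgin1. They were found by gene symbol in both RPKM tables of the series, 10 of 17658 named rows in one and 10 of 16719 in the other. RNA-seq was performed on ASZ001 cells, a mouse basal cell carcinoma line that the study uses as a model of resistance to Smoothened inhibitors. In the first experiment cells in low serum were given 10 µM SB431542 or its solvent DMSO for 24 h, with 3 libraries of each. SB431542 is an inhibitor of the TGFß receptor kinase ALK5. In the second experiment cells in the same medium were given 20 µM T-5224, an inhibitor of AP-1, or DMSO for 24 h, with 2 libraries of each. The study calls the replicates of each condition biological, and all come from this single line, so p-values measure the spread between replicates of 1 line.

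NRF2 is a basic leucine zipper factor that is bound by KEAP1 in unstressed cells and degraded through the CUL3 ubiquitin ligase. Electrophiles and oxidants modify cysteines of KEAP1, NRF2 then accumulates, pairs with a small MAF protein and binds antioxidant response elements. Its targets make glutathione, keep glutathione and thioredoxin reduced, and remove quinones and heme. AP-1, the target of T-5224, belongs to the same protein class, and its DNA site is contained in some antioxidant response elements. Since KEAP1 acts on NRF2 protein, the mRNA levels below do not measure NRF2 activity itself.

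With T-5224, 9 of the 10 genes rose, against 40.3% of all genes tested, and Keap1 did not pass the test. The rises ran from 1.89-fold for Gsr to 26.9-fold for Osgin1 as ratios of mean RPKM, and Hmox1 rose 23.3-fold to 508 ± 36.6 RPKM (SD, n = 2). The Osgin1 ratio rests on a DMSO mean of 0.714 RPKM, a low level with few reads behind it. With SB431542, the largest ratio was 1.33, for Txnrd1, and Hmox1 had means of 11.05 RPKM in DMSO and 11.02 RPKM with the inhibitor. RPKM are reads per kilobase of transcript, scaled to library depth. Each table was tested on its own with limma, on the scale log2(RPKM + 0.5), for all genes whose mean RPKM reached 1, and p-values were adjusted by Benjamini-Hochberg. All 10 genes passed this filter in both tables, but Osgin1 passed it in the T-5224 experiment only through the T-5224 libraries and had to differ. Leaving Osgin1 out, 8 of 9 genes rose with T-5224. A gene rose or fell at an adjusted p under 0.05, and a fold change over 2 (log2 fold change beyond 1 in size) was counted in addition.

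The depth behind the RPKM was 31900000 to 51400000 reads a library, as read from the steps between values of short genes. ASZ001 cells showed the epidermal markers Krt5, Krt14, Trp63, Itga6 and Krt15 in every library. The summed level of these 5 was 11597 to 12256 RPKM in DMSO and 1463 to 1518 RPKM with T-5224, and 9087 to 9250 and 6319 to 6779 RPKM in the SB431542 experiment. Most of each sum came from Krt5 and Krt14. Krt15 was at 50.8 to 55.1 RPKM in DMSO and at only 1.40 to 1.44 RPKM with T-5224. In the SB431542 experiment Krt15 was higher with the inhibitor (29.0 to 41.1 RPKM) than in DMSO (22.9 to 26.0 RPKM), and Trp63 and Itga6 overlapped between the groups. RPKM are relative, so a change in RNA per cell and a change in the share of a transcript cannot be told apart, and the part of the keratin fall in the rises below was not tested. The 5 fibroblast, 4 immune and 3 endothelial markers looked at summed to much less. In the T-5224 experiment the summed level of the fibroblast markers with a row was 2.35 to 2.49 RPKM in DMSO and 2.57 to 2.81 RPKM with the inhibitor, that of the immune markers 16.7 to 18.6 and 32.7 to 33.2 RPKM, and that of the endothelial markers 10.7 to 11.8 and 4.11 to 4.67 RPKM. In the SB431542 experiment the same sums were 2.35 to 2.45 and 3.63 to 4.13 RPKM, 7.03 to 10.5 and 7.72 to 8.35 RPKM, and 5.23 to 6.57 and 2.60 to 2.83 RPKM. Among defining markers, the leukocyte marker Ptprc was at most at 0.012 RPKM, the endothelial marker Cdh5 was at most at 0.013 RPKM where listed, and the fibroblast collagens Col1a1 and Col3a1 were at most at 0.102 RPKM. Most of the fibroblast sum came from Dcn, and nearly all of the immune and endothelial sums came from Cd68 and Pecam1. Dcn was at 2.066 to 2.214 RPKM in DMSO and at 3.525 to 4.002 RPKM with SB431542. In the T-5224 experiment Dcn was at 1.747 to 2.029 RPKM in DMSO and at 2.425 to 2.669 RPKM with the inhibitor. The fibroblast marker Pdgfra was at most at 0.58 RPKM. The part of Dcn, Cd68 and Pecam1 in the results was not tested.

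The upstream sequences of 5 of the genes are printed because they hold motif matches. Those of Gclm, Nfe2l2 and Txnrd1 hold the antioxidant response element TGACNNNGC. In those of Osgin1 and Srxn1 an AP-1 site coincides with a G form of the element, TGAGNNNGC. RefSeq promoter windows (GRCm38.p6 table, 250 bases before to 50 after a transcription start) were at hand for 7 of the 10 genes, 9 windows in all, and not for Hmox1, Gclc and Gsr. Each printed sequence is the 250 bases before the start, 5′ to 3′ on the strand of the gene, and was found once by exact match on its mm9 chromosome. Capitals mark matches, on either strand, to the antioxidant response element TGACNNNGC, to its G form TGAGNNNGC or to the AP-1 site TGANTCA, which both element forms contain when their free bases are TCA. The printed parts lie at chr3:121948225-121948474 on the + strand for Gclm, chr2:75542721-75542970 on the - strand for Nfe2l2, chr8:121960797-121961046 on the + strand for Osgin1, chr2:151931010-151931259 on the + strand for Srxn1 and chr10:82321701-82321950 on the + strand for the second of the 3 Txnrd1 starts. Those of Osgin1 and Txnrd1 lie inside the annotated genes (chr8:121958024-121970156 and chr10:82296696-82360469), before internal starts.
Gclm: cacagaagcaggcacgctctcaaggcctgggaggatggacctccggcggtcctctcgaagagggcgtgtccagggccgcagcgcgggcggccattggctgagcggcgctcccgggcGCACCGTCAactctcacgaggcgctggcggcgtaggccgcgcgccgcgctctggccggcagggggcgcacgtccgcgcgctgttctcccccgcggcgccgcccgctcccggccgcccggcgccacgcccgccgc
Nfe2l2: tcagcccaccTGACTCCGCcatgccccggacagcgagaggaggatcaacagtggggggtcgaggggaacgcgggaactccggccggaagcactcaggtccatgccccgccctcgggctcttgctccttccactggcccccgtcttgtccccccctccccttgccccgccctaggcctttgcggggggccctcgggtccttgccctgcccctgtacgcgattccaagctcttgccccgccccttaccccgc
Osgin1: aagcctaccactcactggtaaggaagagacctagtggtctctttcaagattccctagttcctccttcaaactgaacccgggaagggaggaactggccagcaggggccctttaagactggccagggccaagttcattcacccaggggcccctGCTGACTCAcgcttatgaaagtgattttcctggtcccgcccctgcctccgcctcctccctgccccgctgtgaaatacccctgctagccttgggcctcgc
Srxn1: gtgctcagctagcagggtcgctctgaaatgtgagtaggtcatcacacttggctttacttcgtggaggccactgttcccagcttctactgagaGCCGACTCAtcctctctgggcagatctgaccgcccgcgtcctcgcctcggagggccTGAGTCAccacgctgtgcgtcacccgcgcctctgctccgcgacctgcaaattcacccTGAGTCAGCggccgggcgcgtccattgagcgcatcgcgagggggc
Txnrd1: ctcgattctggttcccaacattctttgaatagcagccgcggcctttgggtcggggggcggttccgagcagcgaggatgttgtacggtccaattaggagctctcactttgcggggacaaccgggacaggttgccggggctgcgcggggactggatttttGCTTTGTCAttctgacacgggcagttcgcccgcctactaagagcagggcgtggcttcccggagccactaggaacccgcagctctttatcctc

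Counted from the transcription start, the element TGACNNNGC was matched at -134 in Gclm, at -240 in Nfe2l2, at -92 in Txnrd1 and at 29 in Srxn1, past the start and so outside the printed part. It occurred in 12.4% of all 32851 promoter windows of the table. The AP-1 site TGANTCA was matched at -97 in Osgin1 and at -102 and -45 in Srxn1, and occurred in 7.81% of all windows. The G form was looked for after the windows had been seen, was matched in Osgin1 (-99) and Srxn1 (-158 and -45), and occurred in 17.6% of all windows. In both genes a G form match contained an AP-1 match, with the same 9 letters, TGAGTCAGC, at -45 in Srxn1 and, on the opposite strand, at -99 in Osgin1. These 9 letters were taken from the matches in Osgin1 and Srxn1, so it was fixed beforehand that both genes hold them. They occurred in 0.414% of all windows, a share that is a description and no test. A match is a description of the letters and not evidence of binding, and the windows of Keap1 and Nqo1 held none of these matches, which says nothing of sites farther away.

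**Figure D1:**
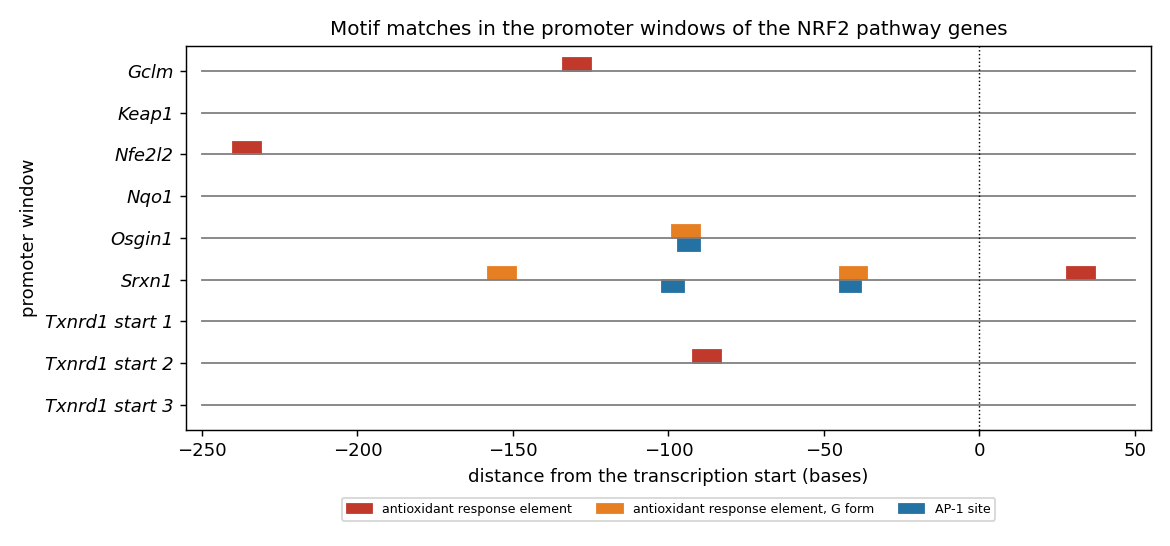
Promoter windows of 7 NRF2 pathway genes, 1 line a transcription start, against the distance from the start in bases. Boxes above the lines mark antioxidant response elements TGACNNNGC (red) and the G form TGAGNNNGC, looked for afterwards (orange). Boxes below the lines mark AP-1 sites (blue), and matches on either strand are shown. The G form and the AP-1 site coincide at -45 in Srxn1 and at -99 to -97 in Osgin1.

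In untreated cells, 9 of the 10 genes were expressed between 10.7 and 37.8 RPKM in every DMSO library of the SB431542 experiment, and Osgin1 lay below them at 1.22 to 1.95 RPKM. Gsr, which encodes glutathione reductase, was highest at 35.8 ± 1.81 RPKM (SD, n = 3). Gclm, Nfe2l2, Gclc and Keap1 followed with means of 30.4 to 25.3 RPKM, and each overlapped its neighbour in this order. Txnrd1 came next with a mean of 22.5 RPKM, then Nqo1 and Srxn1, which overlapped at 15.1 and 13.2 RPKM, and then Hmox1 at 11.05 RPKM. In DMSO of the second experiment, Nfe2l2 (mean 40.6 RPKM) and Nqo1 (mean 40.4 RPKM) were highest and overlapped, and Osgin1 was again lowest at 0.714 RPKM. The tables were deposited and fitted separately, and their DMSO levels were not tested against each other.

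Nfe2l2 (mm9 chr2:75513570-75542698), the gene of NRF2 itself, went from 41.2 and 40.0 RPKM in DMSO to 81.0 and 80.5 RPKM under T-5224. The groups were far apart, and the log2 fold change was 0.98 (standard error 0.05, adjusted p = 1.21e-08), just short of 2-fold. Without DMSO replicate 1 it passed the limit at 1.01. Keap1 (chr9:21034174-21043776), the substrate adaptor that marks NRF2 for degradation, was at 35.5 and 38.6 RPKM in DMSO and at 37.0 and 35.4 RPKM with T-5224. These groups overlapped, and the log2 fold change was -0.03 (95% confidence interval -0.17 to 0.11, adjusted p = 0.658).

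Gclc and Gclm encode the catalytic and the modifier subunit of glutamate-cysteine ligase, the rate-limiting enzyme of glutathione synthesis. Gclc (chr9:77602342-77642292) was at 18.04 and 18.7 RPKM in DMSO and at 64.9 and 62.2 RPKM with T-5224. Gclm (chr3:121948475-121972902) was at 20.1 and 18.4 RPKM in DMSO and at 187 and 178 RPKM with T-5224. The subunits thus overlapped before treatment, and with T-5224 Gclm lay above Gclc in both libraries. The log2 fold change was 1.76 for Gclc (standard error 0.06, adjusted p = 2.14e-10) and 3.21 for Gclm (standard error 0.06, adjusted p = 3.31e-12), intervals of 1.64 to 1.89 and 3.08 to 3.35. Gsr (chr8:34762995-34808635), which regenerates reduced glutathione, went from 31.8 and 30.1 RPKM to 60.1 and 56.9 RPKM. With 0.91 on the log2 scale (standard error 0.06, adjusted p = 6.07e-08) this was the smallest rise of the 9.

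Txnrd1 and Srxn1 serve the thioredoxin and peroxiredoxin branch. Txnrd1 (chr10:82296696-82360469), the cytosolic thioredoxin reductase, was at 16.1 and 15.7 RPKM in DMSO and at 50.8 and 49.7 RPKM with T-5224. Srxn1 (chr2:151931252-151937112), which encodes the sulfiredoxin that restores overoxidized peroxiredoxins, was at 22.1 and 24.1 RPKM in DMSO and at 193 and 196 RPKM with T-5224. Both rose, by log2 fold changes of 1.63 and 3.05 (standard error 0.06 each, adjusted p = 3.89e-10 and 3.38e-12).

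Nqo1, Hmox1 and Osgin1 act on quinones, on heme and on growth and cell death. Nqo1 (chr8:109912125-109927106), a quinone reductase widely used as a readout of NRF2, was at 41.3 and 39.6 RPKM in DMSO and at 108 and 104 RPKM with T-5224 (log2 fold change 1.38, standard error 0.05, adjusted p = 8.87e-10). Hmox1 (chr8:77617490-77624495), the inducible heme oxygenase, was at 22.2 and 21.5 RPKM in DMSO and at 534 and 482 RPKM with T-5224. Among all named rows of the table, it went from places 3445 and 3513 by level to places 53 and 58. The rise of 4.51 on the log2 scale (standard error 0.06, adjusted p = 3.94e-13) was the largest of the 10 with this pseudocount, while with a pseudocount of 0.1, and as a ratio of mean RPKM, Osgin1 lay above it.

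Osgin1 (chr8:121958024-121970156), an oxidative stress-induced growth inhibitor, was at 0.587 and 0.840 RPKM in DMSO and at 19.4 and 19.0 RPKM with T-5224. Its level was low before treatment. About 14 to 38 and 25 to 66 reads lay behind the 2 DMSO values, depending on which annotated transcript length is used. The difference of 4.03 on the log2 scale (standard error 0.11) depended on the pseudocount, and was 3.56 with 1 and 4.58 with 0.1. Osgin1 passed the filter on mean RPKM only through the T-5224 libraries, so it had to differ, and its test (adjusted p = 4.96e-11) adds no support. The order of the 10 genes also differed between the groups of this experiment, with Hmox1, Srxn1 and Gclm at places 6, 5 and 7 in DMSO and at places 1, 2 and 3 with T-5224.

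**Figure D2:**
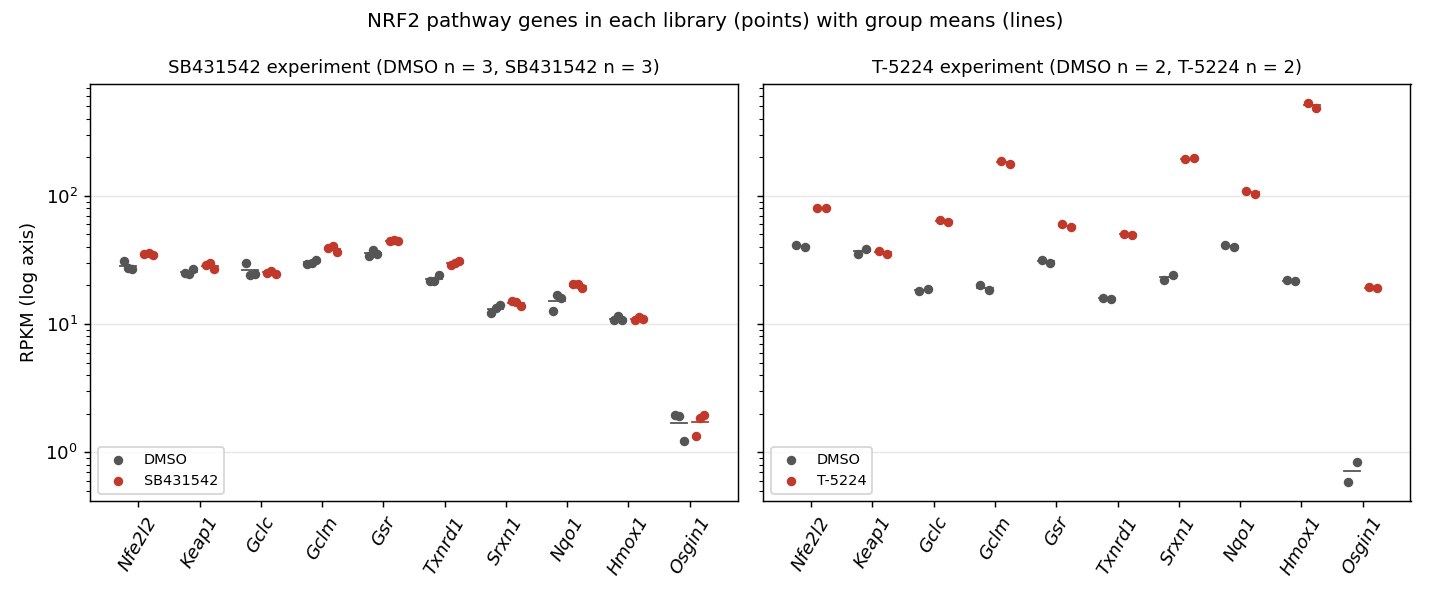
RPKM of the 10 NRF2 pathway genes (log axis) in each library of the SB431542 experiment (left) and the T-5224 experiment (right), with DMSO in grey, inhibitor in red and lines at group means. With T-5224 every gene but Keap1 lies above both DMSO libraries, and with SB431542 the shifts are small next to these.

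By count, 7 of the 10 genes rose more than 2-fold with T-5224 (Gclc, Gclm, Txnrd1, Srxn1, Nqo1, Hmox1 and Osgin1), where 10.4% of all 10809 genes tested did. Leaving out Osgin1, which had to differ, 6 of 9 rose more than 2-fold and 8 of 9 were higher without the limit. Without the fold limit 9 of 10 were higher, against 40.3% of all genes, and 0 of 10 were lower, against 39.4%. Both T-5224 libraries lay above both DMSO libraries for 9 of 10 genes, against 45.1% of all genes, and for 0 of 10 both lay below, against 44.5%. Across the 10 genes the median was 1.70 on the log2 scale (1.63 without Osgin1), and across all genes tested 0.003. The upper quartile of all genes was 0.50 and the 99th percentile 2.71, a value that Hmox1, Osgin1, Gclm and Srxn1 exceeded. The genes had been chosen with earlier results of these data known, so these counts are descriptions.

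**Figure D3:**
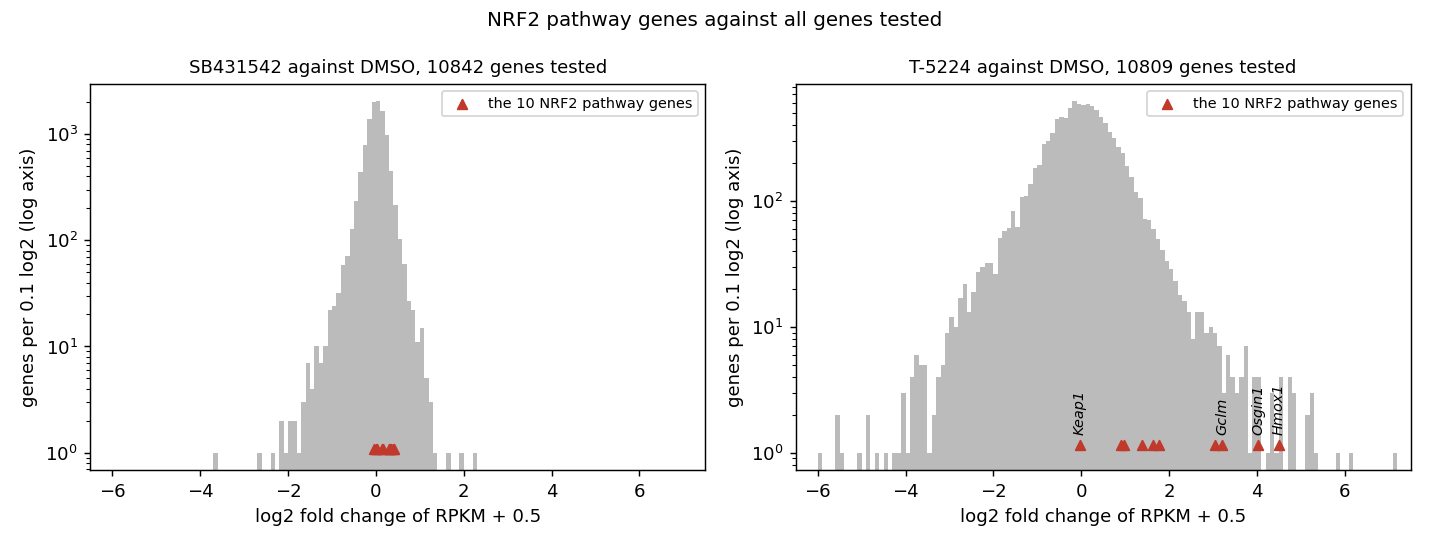
Log2 fold changes of all genes tested (grey, genes per 0.1 log2 on a log axis) and of the 10 NRF2 pathway genes (red triangles, whose height has no meaning) with SB431542 (left) and T-5224 (right). With T-5224 the 10 genes run from -0.03 (Keap1) to 4.51 (Hmox1), and with SB431542 all lie between -0.04 and 0.40.

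With SB431542 the genes stayed closer to their DMSO levels. Of the 10 genes 5 were higher at an adjusted p under 0.05 (Nfe2l2, Gclm, Gsr, Txnrd1 and Nqo1), where 10.2% of all 10842 genes tested were higher, and 0 of 10 were lower (10.0% of all genes). None passed 2-fold, as did 0.231% of all genes upward and 0.581% downward. In the same 5 genes every SB431542 library lay above every DMSO library, a pattern that 23.9% of all genes showed, and in 0 of 10 every SB431542 library lay below, against 21.3% of all genes.

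Txnrd1 was at 21.8, 21.6 and 24.2 RPKM in DMSO and at 28.9, 29.8 and 31.0 RPKM with SB431542, without overlap (log2 fold change 0.40, standard error 0.06, adjusted p = 0.00606). Gclm was at 29.5, 30.1 and 31.7 RPKM in DMSO and at 39.0, 40.4 and 36.8 RPKM with SB431542 (0.34, standard error 0.06, adjusted p = 0.00776). These rises passed the test in all 17 alternatives tried. Gsr went from 34.2, 37.8 and 35.3 RPKM to 44.2, 45.6 and 44.6 RPKM (0.32, standard error 0.05, adjusted p = 0.00815), and missed the threshold only without SB431542 replicate 2 (adjusted p = 0.0507).

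Nfe2l2 was at 30.9, 27.4 and 26.8 RPKM in DMSO and at 35.2, 35.8 and 34.3 RPKM with SB431542 (log2 fold change 0.30, standard error 0.07, adjusted p = 0.0195). Nqo1 was at 12.6, 16.8 and 15.98 RPKM in DMSO, with replicate 1 below the others, and at 20.4, 20.5 and 19.0 RPKM with SB431542 (0.40, standard error 0.11, adjusted p = 0.0375). These 2 genes missed the threshold when any 1 SB431542 library or DMSO replicate 3 was left out, and Nfe2l2 also without DMSO replicate 2. Nqo1 missed it as well when no filter on low genes was used (adjusted p = 0.0739). With a library left out, the adjusted p-values that missed it lay between 0.0500 and 0.0873 for Nfe2l2 and between 0.0500 and 0.127 for Nqo1. Without DMSO replicate 1 both passed, and the log2 fold change of Nqo1 was 0.28.

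The other 5 genes did not pass the test with SB431542. Hmox1 was at 10.8, 11.6 and 10.7 RPKM in DMSO and at 10.8, 11.3 and 10.9 RPKM with SB431542, a log2 fold change of -0.002 (95% confidence interval -0.14 to 0.13). Osgin1 lay between 1.22 and 1.95 RPKM in all 6 libraries, with a wide interval of -0.38 to 0.42. Gclc had a log2 fold change of -0.04 (-0.24 to 0.16), Srxn1 of 0.14 (-0.02 to 0.30) and Keap1 of 0.16 (0.02 to 0.31, adjusted p = 0.109). Gclm and Gclc, the subunits of the same ligase, thus did not pass together here.

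**Figure D4:**
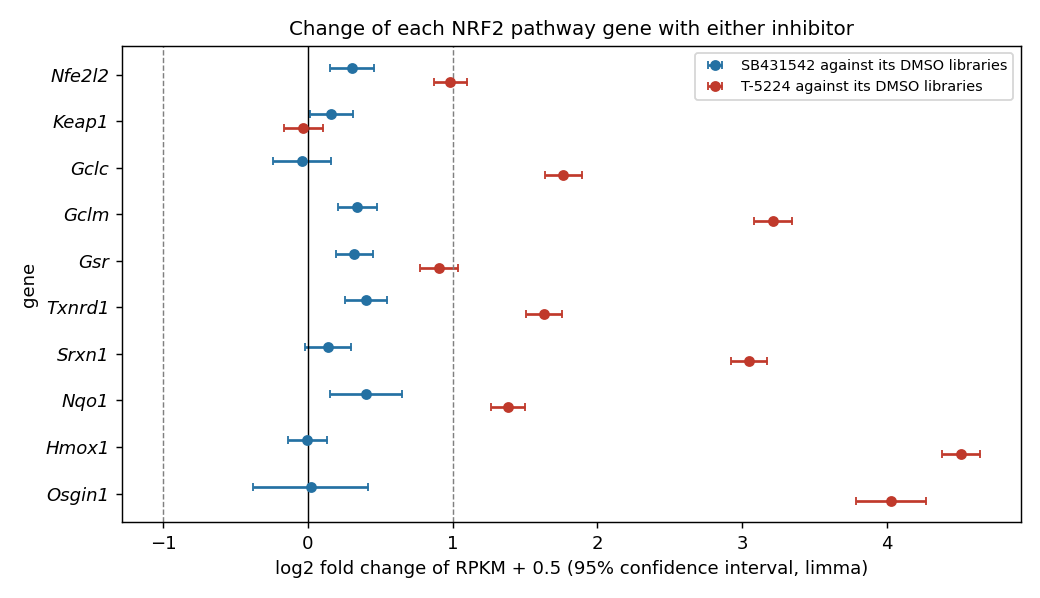
Log2 fold change of each NRF2 pathway gene with SB431542 (blue) and with T-5224 (red) against the DMSO libraries of its own experiment, with 95% confidence intervals from limma and dashed lines at 2-fold. Hmox1 and Osgin1 lie at 4.51 and 4.03 with T-5224 and at -0.002 and 0.02 with SB431542, and Keap1 lies at -0.03 and 0.16.

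Around these 10 genes, 8 lists with 90 further genes covered regulators of NRF2, the systems its targets serve, and genes of the transcription factor ATF4, which also drives some antioxidant genes. With T-5224, 76 of the 90 could be tested, 9 were expressed too weakly and 5 had no row. Of the 76, 26 rose and 9 fell more than 2-fold (10.4% and 10.6% of all genes). Without the fold limit 44 were higher and 25 lower (40.3% and 39.4%). Gsta1 passed the filter only through the T-5224 libraries and had to differ. Leaving it out, 25 of 75 rose more than 2-fold and 43 were higher. With SB431542, 78 could be tested, 9 were too weak and 3 had no row. There 0 rose and 3 fell more than 2-fold, and 15 were higher and 11 lower without the fold limit, where 0.231% and 0.581% of all genes passed 2-fold and 10.2% and 10.0% were higher and lower. A list gene said below to be higher or lower, or to rise or fall, had an adjusted p under 0.05 by limma, and values in brackets are log2 fold changes. The 40 list genes named for the size of their change with T-5224 passed the test in every alternative that kept all libraries and could test them. Atf4, named in addition, did so too, and Slc7a11 was not put through the alternatives. Of the 24 named with SB431542, 9 passed in every alternative that could test them (Aldh3a1, Atf4, Gpx8, Gsta4, Nfe2l1, Nfe2l3, Slc40a1, Tfrc and Txnip). The other 15 did not. Of these 15, 12 missed the threshold without SB431542 replicate 1, 14 without replicate 2, 14 without replicate 3, and 5 without DMSO replicate 2 or 3 each.

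Of the 10 regulators tested with T-5224, 5 were higher and 5 lower, where 40.3% and 39.4% of all genes were. Sqstm1, whose protein p62 can take KEAP1 away from NRF2, rose from 221 ± 3.56 to 1161 ± 35.8 RPKM (SD, n = 2 each), a log2 fold change of 2.39. The small MAF genes Maff (2.12) and Mafg (2.04) rose as well. The genes of the KEAP1 ligase complex Cul3 (-0.62) and Rbx1 (-0.57) fell, and so did Btrc (-0.57), which serves a second route of NRF2 degradation. With SB431542, Maff (0.67) and Mafg (0.26) were higher, and Nfe2l3 (-1.04) and Nfe2l1 (-0.37), both relatives of NRF2, were lower, among 11 tested. Of all genes, 10.2% were higher and 10.0% lower with SB431542. The fall of Nfe2l3 dropped under 2-fold with a pseudocount of 1 (-0.91), with quantile normalization (-0.997) and without DMSO replicate 1 (-0.96).

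The list for glutathione synthesis and use had 11 genes higher and 5 lower of 18 tested with T-5224, where 40.3% and 39.4% of all genes were. Gsta4 rose from 25.6 to 204 RPKM (log2 fold change 2.97), and Slc3a2, the heavy chain of the cystine importer, rose from 104 to 581 RPKM (2.47). Its light chain Slc7a11, named here after its values were seen, rose from 5.06 to 26.0 RPKM (2.25). Gsta1 was at 0.066 RPKM in DMSO and 2.38 RPKM with T-5224. It passed the filter only through the T-5224 libraries and had to differ (10 of 17 were higher without it), and reads may be shared with the near-identical Gsta2. Gpx8, a peroxidase of the endoplasmic reticulum, fell from 49.6 to 5.37 RPKM (-3.09), and the microsomal transferases Mgst3 (-1.36) and Mgst1 (-1.31) fell too. With SB431542, Gsta4 (0.85), Gstm1 (0.41) and Mgst3 (0.27) were higher and Gpx8 (-0.59), Gsta3 (-0.50) and Gpx1 (-0.21) lower. This list had 4 higher and 3 lower of 18 with SB431542, where 10.2% and 10.0% of all genes were.

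Of 11 thioredoxin and peroxiredoxin genes tested with T-5224, 3 were higher and 7 lower, where 40.3% and 39.4% of all genes were. Txn1, the substrate of the reductase Txnrd1, fell from 768 to 319 RPKM (log2 fold change -1.27). Prdx2 (-1.07) and Txnip (-1.01), which inhibits thioredoxin, fell as well, Txnip by under 2-fold without DMSO replicate 2 or T-5224 replicate 2 (both -0.97). The risers were Sesn2 (1.19), Prdx6 (1.17) and the mitochondrial Txn2 (0.95). With SB431542, Txnip fell from 37.7 to 12.9 RPKM (-1.51) and Txnrd3 was lower (-0.32), while Txn2 was higher (0.26).

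Of 9 heme and iron genes, 6 were higher and 3 lower with T-5224, where 40.3% and 39.4% of all genes were. The ferritin chains Fth1 (811 to 3544 RPKM, log2 fold change 2.13) and Ftl1 (1131 to 4475 RPKM, 1.98) store the iron that heme oxygenase frees, and Tfrc, the transferrin receptor, rose from 13.3 to 70.5 RPKM (2.36). Ferritin has many pseudogene copies, to which reads can be lost or gained. The iron exporter Slc40a1 fell from 17.9 to 2.43 RPKM (-2.65), and the heme and bilirubin enzymes Fech (-0.61) and Blvra (-0.57) fell. With SB431542, Tfrc (0.69) and Fth1 (0.47) were higher and Slc40a1 was lower, from 3.95 to 1.13 RPKM (-1.43).

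Catalase and the superoxide dismutases remove peroxide and superoxide. Of 3 superoxide and peroxide genes, Cat (0.83) and Sod1 (0.67) were higher with T-5224, and Cat was lower with SB431542 (-0.35). NADPH feeds the glutathione and thioredoxin reductases. Of 6 genes tied to its supply, Taldo1 (0.78), Me1 (0.74) and Pgd (0.52) were higher and Idh1 (-1.21) and G6pdx (-0.36) lower with T-5224, and Pgd was lower with SB431542 (-0.25). Of 11 detoxification genes tested, 7 were higher with T-5224, led by the esterase Esd (2.47), the efflux pump Abcc4 (2.41) and the carbonyl reductase Cbr3 (1.39). Ugdh (-0.73) and Cbr1 (-0.68) were lower with T-5224. Beside the T-5224 counts of these lists, 40.3% of all genes were higher and 39.4% lower. With SB431542, Aldh3a1 (0.81), Cbr3 (0.49) and Akr1b8 (0.39) were higher and Cbr1 lower (-0.25). The detoxification list had 4 higher and 1 lower of 12 with SB431542, where 10.2% and 10.0% of all genes were.

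The median of the ATF4 list with T-5224 was 3.64 on the log2 scale, beside 1.70 for the 10 NRF2 pathway genes. Of 8 tested, 7 were higher with T-5224 and 1 lower, where 40.3% and 39.4% of all genes were. Trib3, a pseudokinase, rose from 7.14 to 539 RPKM (6.15), Atf3 from 2.25 to 101 RPKM (5.20) and Ddit3, which encodes CHOP, from 19.4 to 574 RPKM (4.85), while the lipoprotein receptor Vldlr fell (-1.12). Atf4 itself, named here with T-5224 after its values were seen, rose from 46.1 to 533 RPKM (3.52). With SB431542, Trib3 (0.61, adjusted p = 0.0470) and Atf4 (0.55, adjusted p = 0.00189) were higher and 6 of 8 did not pass. Across all genes tested, 10.2% were higher and 10.0% lower with SB431542. Trib3 missed the threshold in 6 of 17 alternatives, with adjusted p-values up to 0.155 (without SB431542 replicate 2), and Atf4 in 0 of 17. How far ATF4 and NRF2 each account for the levels of genes such as Hmox1 and Slc7a11 was not tested.

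**Figure D5:**
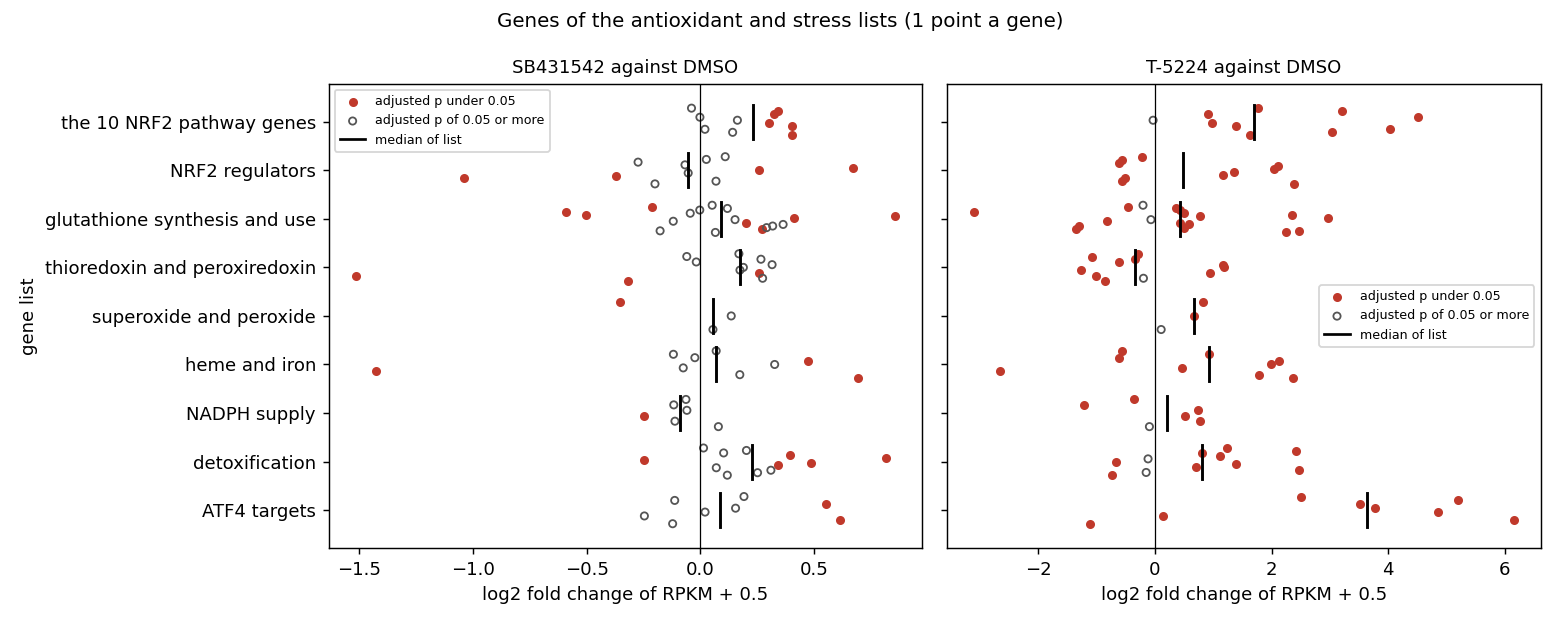
Log2 fold changes of the 10 NRF2 pathway genes and of 8 lists of related genes with SB431542 (left) and T-5224 (right), 1 point a gene, filled where the adjusted p is under 0.05, with black lines at the medians (the horizontal scales differ). With T-5224 the medians of the 10 genes (1.70) and of the ATF4 list (3.64) stand to the right, and the thioredoxin list has a median of -0.35.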

How the data were processed

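RNA-seq was available for 10 libraries of ASZ001 cells. Per the labels and the study's methods, the authors prepared stranded mRNA libraries, aligned reads with TopHat to mm9 and counted them with HOMER, and deposited 1 table of RPKM per experiment, in which reads are scaled to gene length and library depth. The labels number the DMSO samples of the T-5224 experiment 4 and 5, but its table numbers them 1 and 2, so each is known by its group only.

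Date-like row names, left by a spreadsheet, were removed (22 and 23 rows). Each inhibitor was set against DMSO of its own table with limma 3.58.1 (R 4.3.3, empirical Bayes with an intensity trend, Benjamini-Hochberg adjustment) after log2(RPKM + 0.5) and a minimum mean of 1 RPKM, which left 10842 and 10809 genes. Depth was read from RPKM of short RNAs, of which at least 99.0% lay within 0.05 of a whole read. Counts were not analysed here. The fit was tested on simulated data. No replicates of a group were identical.

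All 10 pathway genes were named, and of each list up to 3 risers and 3 fallers with the largest change at an adjusted p under 0.05. Slc7a11 and Atf4 were named with T-5224 in addition. The genes and lists were chosen with earlier results of these data known. Gene positions are from GENCODE on NCBIM37 (mm9). Same-numbered SB431542 and DMSO libraries did not deviate together (correlations of -0.148, 0.151 and -0.095 across 10842 genes), so their numbers were not used as pairs. The alternatives tried were other pseudocounts (0.1 and 1), filters (none and a mean of 5), fold limits (none and 1.5), an unadjusted p, median centring, quantile normalization, no trend, each library left out and, for SB431542 only, the replicate number as a block.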

Additional observations from a re-analysis of the deposited data

Results flagged for a closer look

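Of the 48 list genes named above for the size of their change and tested in both experiments, 11 (22.9%) lay on opposite sides. In these 11, every SB431542 library lay on one side of its DMSO libraries and every T-5224 library on the other side of its own. Of all 10462 genes tested in both tables, 10.5% lay in this way, and of the 75 list genes tested in both, 14 (18.7%) did. The genes named had been picked for passing the test in an experiment, so their count is a description. The tables were fitted separately, and the difference between the experiments was not tested. Values below are log2 fold changes, SB431542 first and T-5224 second.

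Lower with the first and higher with the second were Nfe2l1 (-0.37 and 1.16), Gsta3 (-0.50 and 0.77), Cat (-0.35 and 0.83), Pgd (-0.25 and 0.52), Sqstm1 (-0.20 and 2.39), Slc3a2 (-0.18 and 2.47) and Taldo1 (-0.11 and 0.78). The changes of Sqstm1, Slc3a2 and Taldo1 with SB431542 did not pass the test. Placed the other way round were Gstm1 (0.41 and -0.0675), Mgst3 (0.27 and -1.36), Mgst1 (0.32 and -1.31) and Ugdh (0.12 and -0.73). Gstm1 did not pass the test with T-5224, and Mgst1 and Ugdh did not pass it with SB431542. None of the 10 NRF2 pathway genes showed this pattern.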

How the results depend on the processing

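Of the 10 NRF2 pathway genes, 7 or 8 rose more than 2-fold with T-5224 in the 12 alternatives that kept the 2-fold limit (8 without DMSO replicate 1), 9 with a limit of 1.5 or none, and 9 were higher without the fold limit in each of 12. Keap1 was lower under quantile normalization (-0.13, adjusted p = 0.0481), which made 1 lower gene in place of 0, and it lay between -0.13 and 0.03 in all. Hmox1 ranged from 4.43 to 4.58 and Gclm from 3.14 to 3.28, median centring included. With SB431542, the 5 higher genes became 2 to 5 with a library left out, where fewer samples enter the fit (in the T-5224 experiment an arm is then 1 library, assumed to vary like the other arm). The lowest count, 2, came without SB431542 replicate 2, and 3 came without DMSO replicate 3, SB431542 replicate 1 or SB431542 replicate 3. With the replicate number as a block, 4 were higher, Nqo1 being lost (adjusted p = 0.0572), and no other call of these 10 genes changed.

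With no fold limit the calls with SB431542 were 5 of the 10 genes and, in the lists, 15 up and 11 down, against 0, 0 and 3. With T-5224 the lists then had 44 up and 25 down, against 26 and 9. The 44 and the 26 include Gsta1, which had to differ. A limit of 1.5-fold gave 5 list genes up with SB431542 and 16 down with T-5224. A mean RPKM of at least 5 left 1 list gene down with SB431542, and an unadjusted p made 23 list genes higher. With a library left out, list genes higher with SB431542 numbered 5 to 25 and lower ones 5 to 20, and the highest of each came without DMSO replicate 1. The lists had 9, 6, 5 and 5 higher without DMSO replicate 2 and SB431542 replicates 1, 2 and 3, and 6, 6 and 5 lower without the latter 3. List genes down more than 2-fold with SB431542 then numbered 2 or 3. The block left 10 higher and 8 lower in the lists. Depth limits Osgin1, the weakest of the 10 genes in DMSO.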

Other observations

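With T-5224, the ferritin transcripts came to the top of the table by level. Ftl1 was at place 14 in both DMSO libraries, at 1133 and 1130 RPKM, and at places 1 and 2 with T-5224, at 4589 and 4362 RPKM. Fth1 went from places 23 and 25 to places 2 and 3. With SB431542, Fth1 was at 913, 716 and 721 RPKM in DMSO and at 1084, 1091 and 1068 RPKM with the inhibitor, so DMSO replicate 1 lay between the other DMSO libraries and the treated ones.

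Some antioxidant genes had very different RPKM in the DMSO libraries of the 2 tables. Gpx4, the peroxidase for lipid peroxides, was at 78.1 to 84.9 RPKM in DMSO in the SB431542 table and at 7.37 to 8.07 RPKM in the T-5224 table. Akr1b3, an aldose reductase, was at 85.3 to 100.4 RPKM and at 3.65 to 4.45 RPKM. These genes were chosen after their values were seen, and the cause was not tested.

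Gsta2 was listed at 0 in both DMSO libraries of the T-5224 experiment and was at 1.29 and 0.924 RPKM with T-5224, under the lowest mean tested.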
